A study of Mus musculus with 4 samples.

Results

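AP-1 is a family of paired transcription factors built from a FOS protein (FOS, FOSB, FOSL1 or FOSL2) and a JUN protein (JUN, JUNB or JUND). Most of these genes are immediate-early genes, switched on within minutes by growth factors, ERK and JNK kinases, cAMP signals or stress, without new protein synthesis, and their messages are short-lived. EGR1 is a zinc finger factor induced by the same signals, ATF3 is a stress-induced relative of the AP-1 proteins, and IER2 is a small immediate-early nuclear protein. In the mammary gland, as in other epithelia, these genes are also known to be induced while tissue is dissociated into separate cells. The 10 genes Fos, Fosb, Fosl1, Fosl2, Jun, Junb, Jund, Egr1, Atf3 and Ier2 were taken by name, as the AP-1 and EGR immediate-early factors, from 17630 genes in the tables. All 10 were matched by NCBI Gene identifier, and all 10 had a mean of at least 1 FPKM in every comparison.

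The study asked how sympathetic nerve signals act on basal cells of the mouse mammary gland, the outer layer that holds myoepithelial and stem cells. RNA was sequenced from 4 libraries of WT mouse mammary basal cells, 1 library per group, so no difference has a replicate check and no spread between replicates can be given. The sorted control library is labelled as having no treatment, and whether its mice received saline is not stated for it. The sorted 6-OHDA library came from mice given 6-OHDA, a toxin taken up by noradrenergic nerve endings; by the study's methods these cells were sorted as CD24-positive and CD29-high after removal of CD31, CD45 and TER119-positive cells. The control colonies received no agent and the SP colonies received salbutamol, which activates β2 adrenergic receptors, with phenylephrine, which activates α1 receptors. Their titles carry the numbers 0 and 200 with no unit, and that both are colonies grown in Matrigel in medium with EGF was taken from the study's methods. The methods describe colony culture with the agents in a medium that was renewed every few days, and analysis after a week or slightly more. The age of the mice behind these libraries and the number of mice pooled were not found in the labels or methods. Levels are FPKM, fragments scaled to transcript length and to library size, as deposited, and can be set side by side between genes because they are divided by length. The FPKM of all genes summed to 508070.75 in the sorted control, 517503.89 with 6-OHDA, 577630.96 in control colonies and 588202.46 in SP colonies.

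Differences are given as log2(FPKM + 1) of one library minus that of another, a scale that understates the change of genes at low levels. A gene was counted as higher or lower when this difference passed 0.3 in size, and again when it passed 1. The sorted control entered the 6-OHDA comparison and the comparison of colonies with sorted cells, and the control colonies entered the SP comparison and that same comparison, so these differences share libraries. In bulk samples, fewer cells of a type and less RNA per cell cannot be told apart.

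In freshly sorted basal cells the 10 genes were among the abundant transcripts of the cell. Together they held 3777.6 FPKM in the sorted control, 3114.32 with 6-OHDA, 1442.68 in control colonies and 945.94 in SP colonies. These sums were 0.744%, 0.602%, 0.25% and 0.161% of all FPKM. The summed level was therefore highest in the sorted control and lowest in the SP colonies. Fos was the most abundant of the 10 in both sorted libraries, followed by Junb, Egr1 and Atf3, and Jund was the least abundant there. In the control colonies Junb, Fos and Jun led at 359.17, 346.79 and 345.97 FPKM, and in the SP colonies Jun led at 264.15 FPKM. Fosl1 was the least abundant of the 10 in both colony libraries.

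**Figure D1:**
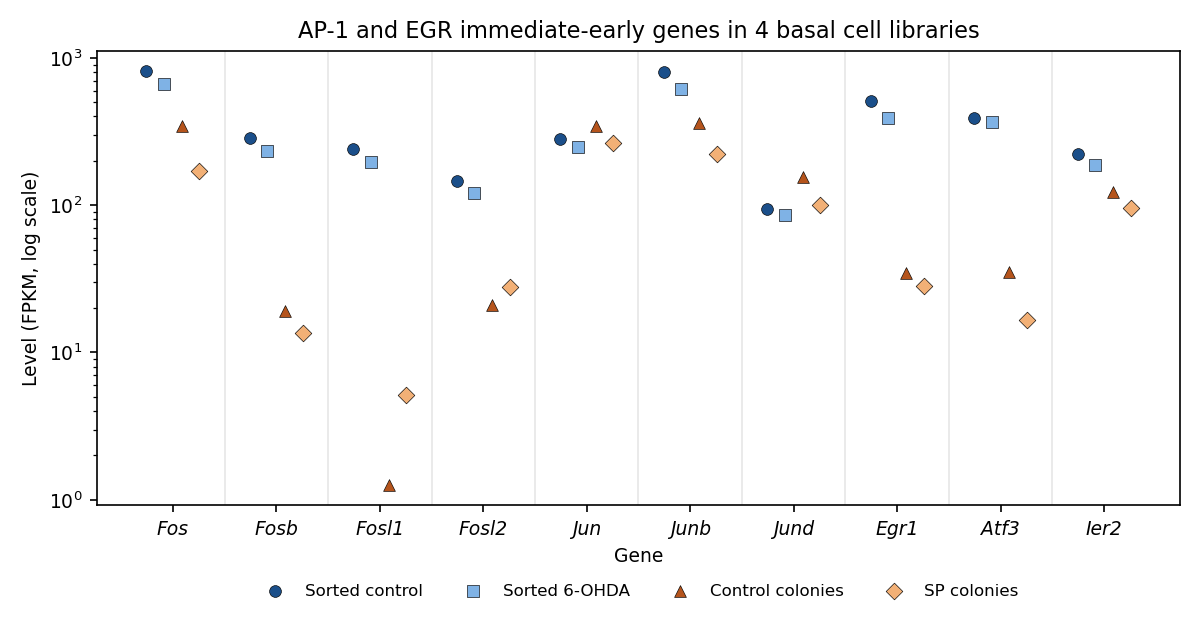
Level of each of the 10 genes in FPKM on a log axis, 1 point per library. Fos and Junb lie near the top in sorted cells at 809.35 and 800.69 FPKM in the control, while Fosl1 lies lowest in both colony libraries, at 1.27 and 5.14 FPKM.

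The FOS genes differed from each other in how far their levels spread among libraries. Fos (chr12:85473890-85477274, RefSeq GRCm38.p6), the founding member of the family, was at 809.35 FPKM in the sorted control, 666.29 with 6-OHDA, 346.79 in control colonies and 171.17 in SP colonies. The level was highest in the sorted control and lowest in the SP colonies, with differences of −0.28 for 6-OHDA, −1.01 for SP and −1.22 for control colonies against sorted control. The SP value was 2.03-fold lower than that of the control colonies, and 148 of the 11849 genes compared had a lower difference. By level, Fos held rank 107 of 17630 genes in the sorted control and rank 492 in the SP colonies.

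Fosb (chr7:19302696-19310118), a close relative of Fos, was at 287.53 FPKM in the sorted control, 232.06 with 6-OHDA, 19.22 in control colonies and 13.52 in SP colonies. It was 15.0-fold lower in control colonies than in sorted control cells (−3.83), with smaller differences for 6-OHDA (−0.31) and SP (−0.48). Its rank by level moved from 255 in the sorted control to 4714 in the control colonies. Thus Fosb was high in both sorted libraries and low in both colony libraries, while Fos stayed abundant in all 4.

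Fosl1 (chr19:5447698-5455938), which encodes FRA1, had the largest difference of the 10 genes between colonies and sorted cells. It stood at 240.34 FPKM in the sorted control, 195.50 with 6-OHDA, 1.27 in control colonies and 5.14 in SP colonies. The control colonies were 189-fold lower than the sorted control (−6.73), and 6 of the 12244 genes compared had a lower difference. Over the processing alternatives this Fosl1 difference ran from −7.46, with a pseudocount of 0.1, to −5.29, with a pseudocount of 5. Within the colonies it was 4.05-fold higher with SP (1.44), and 107 of the 11849 genes compared had a higher difference. From the spacing of low values in the tables, read depth was roughly estimated at 35.0 to 36.8 Fosl1 fragments without SP and 147 to 151 with SP, over assumed fragment lengths of 150 to 300 bases. These estimates are rough, since the spacing was only partly regular (scores of 0.34 to 0.53, where 1 is perfect), and they carry no interval. Within the sorted cells the 6-OHDA difference of Fosl1 was −0.30 and did not pass the threshold (−0.2965).

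Fosl2 (chr5:32136472-32157840), which encodes FRA2, was at 145.01 FPKM in the sorted control, 120.66 with 6-OHDA, 21.17 in control colonies and 27.90 in SP colonies. It was 6.85-fold lower in control colonies than in the sorted control (−2.72) and 1.32-fold higher with SP (0.38), and its 6-OHDA difference was −0.26. Like Fosl1, it was higher in the SP colonies than in the control colonies, whereas Fos and Fosb were lower there.

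The make-up of the FOS family differed between sorted cells and colonies. Fos gave 54.6% of the family's summed FPKM in the sorted control and 54.9% with 6-OHDA, and 89.3% in control colonies and 78.6% in SP colonies. Fosb gave 19.4%, 19.1%, 4.95% and 6.21% in the same order of libraries, and Fosl1 gave 16.2%, 16.1%, 0.327% and 2.36%. Fosl2 gave 9.78%, 9.93%, 5.45% and 12.8%. The 2 sorted libraries thus had nearly the same mixture, and that of the control colonies was mostly Fos. With SP the share of Fos was lower and those of Fosb, Fosl1 and Fosl2 were higher. The ratio of Fos to Fosl1 was 3.37 in the sorted control, 3.41 with 6-OHDA, 273 in control colonies and 33.3 in SP colonies. These shares are ratios within 1 library, so scaling a whole library by 1 factor leaves them the same, which does not hold for quantile normalization.

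The JUN genes, whose proteins pair with FOS proteins or with each other, varied less. Jun (NCBI Gene 16476) was at 279.36 FPKM in the sorted control, 250.03 with 6-OHDA, 345.97 in control colonies and 264.15 in SP colonies. Its differences were −0.16 for 6-OHDA, −0.39 for SP and 0.31 for control colonies against sorted control, the last of which was within the threshold under every other scaling and turned to −0.20 after scaling by the median ratio. All 4 libraries kept Jun within ranks 225 to 312 of 17630. Junb (16477) was at 800.69, 618.81, 359.17 and 221.96 FPKM in the same order. Its libraries had the same order as those of Fos, with differences of −0.37 for 6-OHDA, −0.69 for SP and −1.15 for control colonies against sorted control. Jund (16478), the member known for steady rather than pulsed expression, was at 93.75 FPKM in the sorted control, 85.31 with 6-OHDA, 155.22 in control colonies and 100.65 in SP colonies. Jund was thus highest in the control colonies, 1.66-fold above the sorted control (0.72, but 0.22 and thus within the threshold after scaling by the median ratio), and 1.54-fold lower with SP (−0.62), and its 6-OHDA difference was −0.13. By level Junb lay between ranks 110 and 365 and Jund between ranks 520 and 953.

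Junb gave 68.2% of JUN family FPKM in the sorted control, 64.9% with 6-OHDA, 41.7% in control colonies and 37.8% in SP colonies. Jun gave 23.8%, 26.2%, 40.2% and 45.0%, and Jund 7.99%, 8.94%, 18.0% and 17.2%. Sorted cells therefore held mainly Junb, and colonies held Jun and Junb at close levels. The summed FPKM of the FOS genes over that of the JUN genes was 1.26 in the sorted control and 1.27 with 6-OHDA, and 0.451 in control colonies and 0.371 in SP colonies. The summed level of FOS genes exceeded that of JUN genes in both sorted libraries, and the reverse held in both colony libraries.

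**Figure D2:**
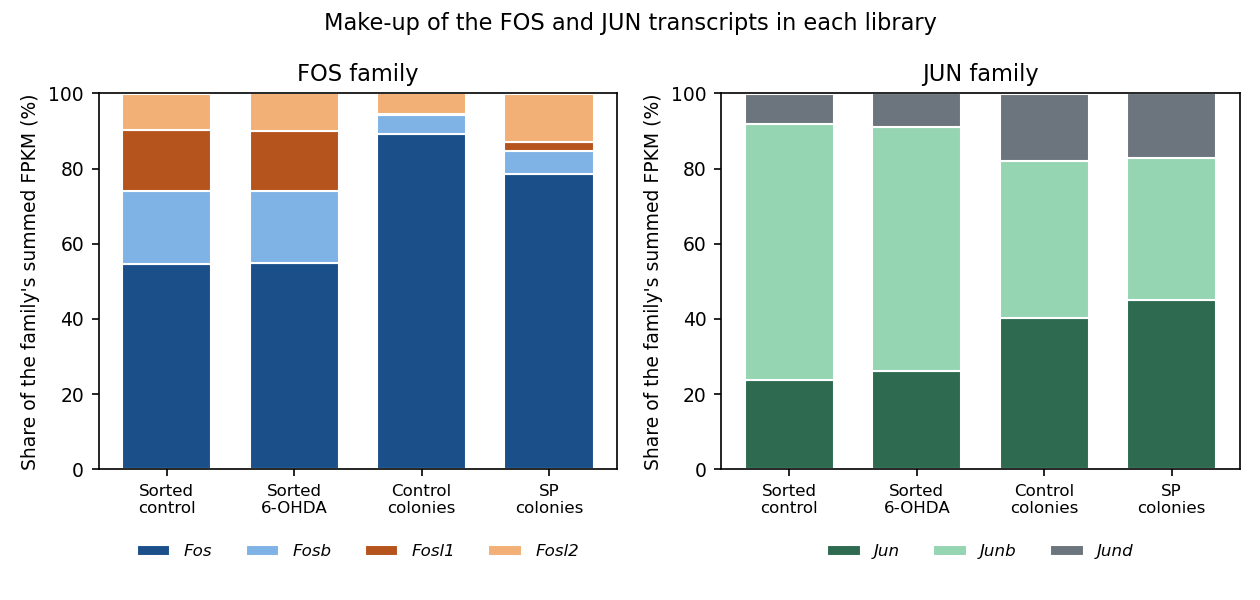
Share of each gene in the summed FPKM of the FOS family (left) and the JUN family (right), in percent, with 1 bar per library. Fos is 54.6% of its family in the sorted control and 89.3% in the control colonies, and Junb is 68.2% and 41.7% of its family.

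Egr1 (13653), an activator that binds GC-rich promoters, was at 506.88 FPKM in the sorted control, 393.54 with 6-OHDA, 34.88 in control colonies and 28.49 in SP colonies. It was 14.5-fold lower in control colonies than in the sorted control (−3.82) and 1.29-fold lower with 6-OHDA (−0.36), and its SP difference of −0.28 did not pass 0.3. Egr1 held rank 160 of 17630 in the sorted control and rank 2654 in the control colonies. Atf3 (chr1:191170296-191183333) was at 393.72, 364.41, 35.25 and 16.59 FPKM in the same order. Its 6-OHDA difference was the smallest of the 10 genes (−0.11), yet it had the lowest SP difference of the 10 (−1.04, 2.12-fold lower), and control colonies were 11.2-fold below sorted control cells (−3.44). Of the 11849 genes compared with SP, 143 had a lower difference than Atf3. Ier2 (15936) was at 220.97 FPKM in the sorted control, 187.71 with 6-OHDA, 123.74 in control colonies and 96.37 in SP colonies. Its differences were −0.23 for 6-OHDA, −0.36 for SP and −0.83 for control colonies against sorted control, the last of which was smaller in size than those of Egr1 and Atf3.

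Sorted cells from 6-OHDA mice were slightly lower than control cells for every one of the 10 genes. Differences ran from −0.37 (Junb) to −0.11 (Atf3) with a median of −0.27, beside a median of 0.06 over the 11749 genes compared. All 10 were below 0, as were 40.3% of all genes compared. By the 0.3 threshold 3 of 10 were lower, namely Junb, Egr1 and Fosb, and 0 were higher, beside 8.35% of all genes lower and 15.8% higher. No member passed 1 in either direction, beside 0.902% of all genes lower and 1.05% higher. The differences of all 10 stayed below 0 under each processing alternative run, but the number past 0.3 depended on scaling. It was 5 after rescaling to equal sums, 6 after scaling by the median ratio, 2 after quantile normalization and 2 after rescaling to equal sums without salivary genes, with or without the 10 members. Fosb was within the threshold under these last scalings, at −0.28 after quantile normalization and −0.29 in both others.

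Colonies grown with SP had lower levels of most of the 10 genes and higher levels of Fosl1 and Fosl2. By the 0.3 threshold 7 of 10 were lower, beside 19.8% of all 11849 genes compared, and 2 of 10 were higher, beside 11.7%. Egr1 lay within the threshold. These calls depended on scaling for Ier2, which was at −0.29 after scaling by the median ratio (6 lower), and for Egr1, which was at −0.31 after rescaling to equal sums (8 lower). Fos and Atf3 passed −1, beside 1.33% of all genes, and Fosl1 passed 1, beside 2.0%. Over the processing alternatives the difference of Fos ran from −1.11 to −0.94 and that of Atf3 from −1.09 to −0.90, so both lie near that threshold. That of Fosl1 ran from 0.69, with a pseudocount of 5, to 1.94, and Fosl1 did not enter at a mean of at least 5 FPKM, so its call past 1 depended on the treatment of low values. The median of the 10 was −0.43, against −0.07 over all genes.

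Control colonies against sorted control cells gave the largest differences. By the 0.3 threshold 8 of 10 genes were lower, beside 26.6% of all 12244 genes compared, and Jun and Jund were higher, beside 55.7%, a direction that for Jun turned under another scaling. By the threshold of 1, 7 were lower, beside 13.2% of all genes, and 0 were higher, beside 30.7%. The median of the 10 was −1.97, and that of all genes was 0.45. Because the centre of all genes lay this far above 0, the comparison was repeated with the libraries scaled by the median ratio, which brought the median of all genes to 0.00. Relative to that centre, Jun was at −0.20, so its direction turned, and Jund at 0.22, within the threshold. The others were then at −1.73 (Fos), −4.31 (Fosb), −6.99 (Fosl1), −3.20 (Fosl2), −1.66 (Junb), −4.31 (Egr1), −3.94 (Atf3) and −1.33 (Ier2). On that scale 0 of the 10 were higher past 0.3 and 8 were lower. The values of other gene lists for this comparison are on the deposited scale, on which the median of all genes was 0.45. The same scaling changed the share of higher genes among all genes past 0.3 from 67.7% to 50.1% here, from 65.4% to 50.5% for 6-OHDA and from 37.1% to 49.8% for SP. Freshly sorted cells and colonies also differed in culture, growth factors and handling, and these cannot be told apart.

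The 43 other immediate-early genes, listed from common knowledge of the class, gave a background for the 10. With 6-OHDA 11 of 43 were lower past 0.3 and 1 was higher, with a median of −0.15. The gene that was higher was Ctgf (Ccn2), which encodes a secreted matrix-associated protein, at 193.17 FPKM in the sorted control and 277.88 with 6-OHDA (0.52), and the lowest differences were those of Dusp5 (−0.51), an ERK phosphatase, and Gadd45g (−0.46), a stress sensor. With SP 10 of the 40 compared were higher and 13 lower, 4 of them past −1, with a median of −0.10. Ctgf (−1.23) and its relative Cyr61 (Ccn1; −1.31) went from 241.09 and 412.18 FPKM in the control colonies to 102.32 and 165.87 with SP, and Klf2 from 4.07 to 1.19 (−1.21). The median of this wider class with SP was thus close to that of all genes, whereas that of the 10 was lower. Between control colonies and sorted cells 34 of 43 were lower and 5 higher (38 and 0 after scaling by the median ratio), with a median of −2.06, near that of the 10. Maff went from 247.53 to 4.03 FPKM (−5.63), Nr4a3 from 57.97 to 0.63 (−5.18) and Egr2 from 124.47 to 3.66 (−4.75).

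**Figure D3:**
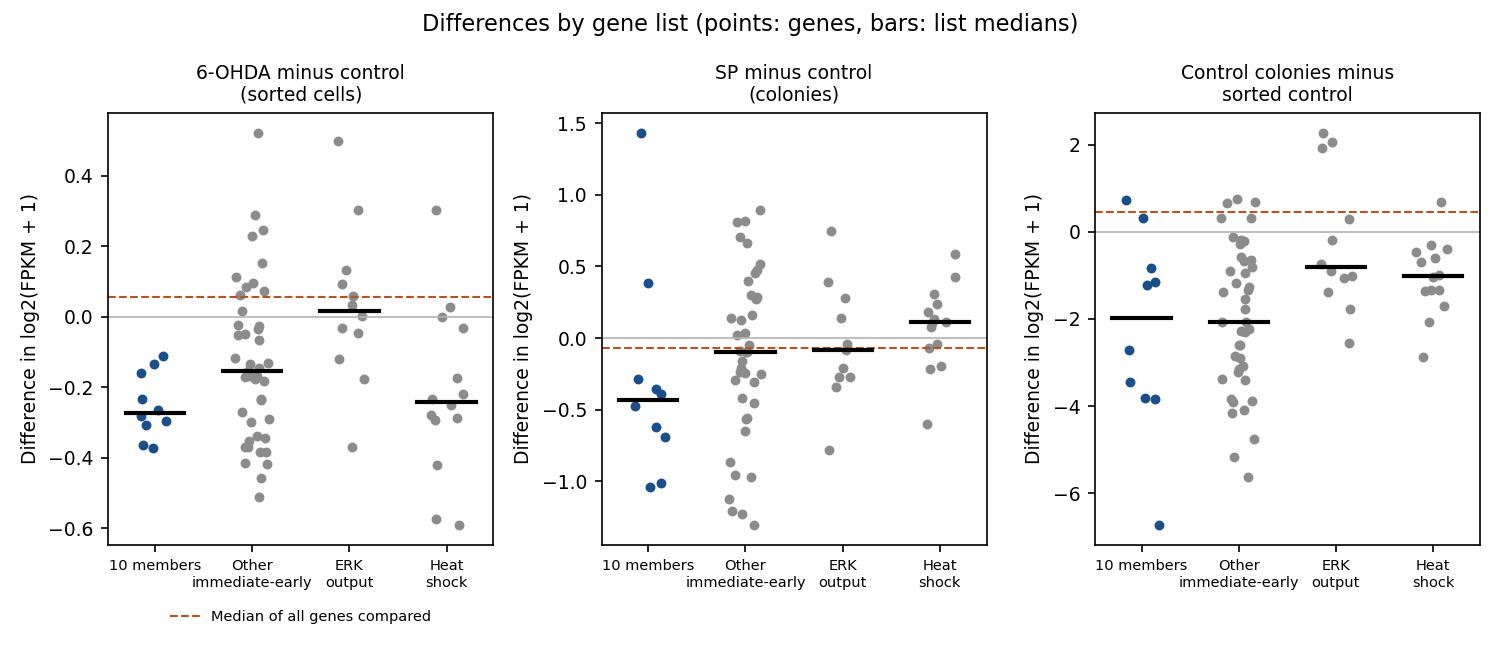
Difference in log2(FPKM + 1) of each gene in 4 lists, in 3 comparisons, with list medians as black bars and the median of all genes compared as a dashed line. The 10 members are in blue, with medians of −0.27, −0.43 and −1.97 from left to right; scaling by the median ratio turns Jun from 0.31 to −0.20 in the right panel.

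Like FOS and JUN proteins, those of the ATF, BATF, MAF and CREB groups carry a leucine zipper. Of such genes 16 were listed (Maff is in this list too). With 6-OHDA 3 of 15 compared were lower and 1 higher, with a median of −0.05. Batf2 went from 11.08 to 1.20 FPKM (−2.46), while Creb5 was higher (0.72). With SP 4 of 14 were lower and 2 higher (median −0.06), with Maff at 0.90, Creb5 at −0.37 and Mafk at −0.36. In control colonies 10 of 15 were lower than in sorted cells and 2 higher (median −0.50), including Batf2, which was listed at 0 in both colony libraries, and Crem, a cAMP-responsive factor, from 61.68 to 5.32 FPKM (−3.31). Atf4 was the most abundant gene of this list in every library, at 582.81, 562.98, 190.28 and 207.79 FPKM.

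The activators that act on immediate-early promoters were listed together with EGR corepressors. Each gene of this list was below every one of the 10 genes in both sorted libraries, at most 44.35 FPKM in the control. Of 14 listed (SRF and its MRTF and ELK cofactors, CREB and its coactivators, and the EGR corepressors NAB1 and NAB2), 0 were lower and 2 higher with 6-OHDA (median 0.11), namely Nab2 (0.38) and Mkl2 (Mrtfb; 0.36), and Ep300 had the next largest difference (−0.27). With SP 2 were higher and 4 lower (median −0.18), led by Elk3 (0.46), Nab2 (−0.38) and Crtc1 (−0.36). In control colonies 6 were higher and 7 lower (median −0.25), with Crtc2 at −1.31, Elk3 at 1.01 and Mkl2 at 1.01. The summed FPKM of the 14 was close in all libraries, at 243.79, 248.79, 236.94 and 239.48.

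Kinases of the ERK, JNK, p38, RSK, MSK and PKA groups, which act upstream, were likewise below every one of the 10 genes in both sorted libraries, at most 60.76 FPKM in the control. Of 15 compared, 0 passed 0.3 with 6-OHDA in either direction (median 0.15), with Mapk3 at 0.24 and Mapk9 at 0.22. With SP 2 were higher, Rps6ka4 (0.68) and Map2k1 (0.55), and Rps6ka5 was lower (−0.32), with a median of −0.07. In control colonies 6 were higher and 5 lower (median 0.16), and Mapk3, which encodes ERK1, went from 25.61 to 107.73 FPKM (2.03), ahead of Mapk9 (1.05) and Prkaca (0.85). These are transcript levels and do not measure kinase activity.

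Delayed genes of ERK output, such as DUSP and SPRY feedback inhibitors, did not share the direction of the 10 in all comparisons. Of 12, 2 were higher and 1 lower with 6-OHDA (median 0.02), namely Etv4 (0.50) and Etv5 (0.30) higher and Ccnd1 lower (−0.37). With SP 2 of 11 were higher and 2 lower (median −0.08), and the largest differences were those of Spred1 (−0.78), Ccnd1 (0.75) and Phlda1 (0.39). In control colonies 7 were lower and 3 higher (median −0.82). Spry4 was at −2.55, whereas Etv4 and Ccnd1 were higher, at 2.28 and 2.06. Ier3 is in this list and in that of immediate-early genes, and Ccnd1 also in the next one.

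Genes often named as AP-1 targets did not move as 1 group with the 10. Of 21 compared with 6-OHDA, 4 were higher and 3 lower (median 0.04), with Mmp13, a collagenase, at 0.83, the cytokine Il6 at 0.49 and the EGF family ligand Ereg at 0.48. With SP, where most of the 10 were lower, 11 of 22 targets were higher and 4 lower (median 0.35), and 5 passed 1. Krt6a, a stress keratin, went from 260.25 to 2198.32 FPKM (3.07), Vegfa from 11.23 to 42.04 (1.82) and the EGF receptor ligand Areg from 16.93 to 46.17. In control colonies 13 of 23 were lower than in sorted cells and 9 higher (median −0.88). Il6 went from 139.47 to 0.25 FPKM (−6.81) and the urokinase receptor Plaur from 264.55 to 8.23 (−4.85), while Mmp13 went from 0.46 to 39.31 (4.79).

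Heat shock genes, another class that responds to handling of cells, were listed beside the 10. With 6-OHDA 3 of 14 were lower and 1 higher (median −0.24), with Hspa1b from 238.04 to 157.67 FPKM (−0.59), Hspa1a at −0.57 and Bag3 at −0.42. With SP 3 were higher and 1 lower (median 0.11), led by Dnajb4 (−0.60), Hspb1 (0.59) and Dnajb1 (0.42). In control colonies 13 were lower and 1 higher (median −1.02), with Bag3 from 238.25 to 31.90 FPKM (−2.86), Hspa1a at −2.07 and Hsph1 at −1.69. The direction of the heat shock median was thus that of the 10 for 6-OHDA and for colonies against sorted cells, and the opposite for SP. Whether the level of the 10 followed the handling of the cells was not tested.

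Among 12 genes often used as references, medians were 0.08 with 6-OHDA, −0.01 with SP and 0.49 in control colonies, so the medians of the 10 genes were below theirs in each comparison. By the 0.3 threshold 2 references were lower and 1 higher with 6-OHDA (largest for Polr2a, −0.55), 1 lower and 3 higher with SP (Gapdh, from 1315.70 to 3177.16 FPKM, 1.27), and 2 lower and 7 higher in control colonies.

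Markers of cell types were set beside the 10 genes. All 11 basal markers were at 1 FPKM or more in each library and summed to 10499.33 FPKM in the sorted control, 9514.38 with 6-OHDA, 6893.85 in the control colonies and 14836.54 with SP, with Krt14 most abundant throughout. In control colonies against sorted cells 7 of 11 were lower and 1 higher (median −0.86). The lowest were the contractile genes Myh11 (−5.26), Mylk (−4.76) and Cnn1 (−4.04), and Krt5 was higher (0.91). With SP 7 were higher and 1 lower (median 0.84), from Krt17 at 1.38 to Oxtr at −0.31, and with 6-OHDA 1 was higher and 2 lower (median 0.10). The 12 luminal markers summed to 1178.96, 1128.49, 2179.3 and 1979.93 FPKM in the same order of libraries, led by Krt8, with 11, 12, 12 and 12 at 1 FPKM or more. With SP 6 of 12 were lower and 1 higher (median −0.24), from Cited1 at −1.45 to Csn3 at 1.43, so their median had the direction of that of the 10. In control colonies against sorted cells 9 of 12 were higher and 1 lower (median 1.02), the opposite of the median of the 10, and with 6-OHDA 2 of 11 were higher and 3 lower (median −0.11).

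Although the gate removed CD31-positive cells, all 8 endothelial markers were at 1 FPKM or more in both sorted libraries, at sums of 303.11 and 298.09 FPKM, and 2 of 8 in each colony library, at sums of 12.19 (control) and 3.21 (SP). The difference between the colony sums was nearly all Erg, from 10.27 to 1.41 FPKM (−2.23). The SP difference of Pecam1 on the log2 scale was 0.10, and these 2 genes were the only ones compared. Pecam1, which encodes CD31, was at 106.62, 93.03, 1.39 and 1.56 FPKM, and Cdh5 at 77.86, 69.40, 0.12 and 0.12, while Tie1 and Cldn5 were listed at 0 with SP. Between control colonies and sorted cells 8 of 8 were lower, with a median of −4.43, so endothelial transcripts had the direction of 8 of the 10 genes there. Of these 8 markers, 6 were below 1 FPKM in control colonies, so the filter of a mean of at least 1 FPKM fixed their direction. In the sorted libraries, where all 10 genes were lower with 6-OHDA, the median of the endothelial markers was 0.04, with 2 of 8 higher and 0 lower. How much of the immediate-early signal of sorted cells came from endothelial cells was not tested.

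Leukocyte markers summed to 85.83, 31.08, 3.95 and 5.04 FPKM, with 4, 4, 1 and 2 of 10 at 1 FPKM or more. They were led by Cd74 in sorted cells (72.96 and 19.46 FPKM, −1.85 with 6-OHDA) and by Cd68 in colonies. In control colonies 4 of 4 compared were lower than in sorted cells (median −1.38). Of these, Cd74, Lyz2 and Cd79a were at 0.58, 0.07 and 0.6 FPKM in control colonies. The filter of a mean of at least 1 FPKM therefore fixed their direction. Most of the difference between the sums of the sorted libraries was that of Cd74, the only 1 of 4 compared that was lower past 0.3 with 6-OHDA, and the other 3 were within the threshold (median −0.18). Ptprc, which encodes CD45, was at 0.77, 0.47, 0 and 0. Fibroblast markers summed to 203.11, 422.38, 366.69 and 267.7 FPKM, with 8, 8, 6 and 5 of 8 at 1 FPKM or more, led by Dcn in sorted cells and Fn1 in colonies, with Dpt at 0 with SP. With 6-OHDA 6 of 8 were higher and 0 lower (median 1.299), such as Col3a1 from 18.33 to 91.67 FPKM (2.26), in the library where the 10 genes were lower. With SP 5 of the 6 compared were lower and 0 higher (median −0.89), and in control colonies against sorted cells 5 of 8 were lower and 2 higher (median −1.58), so in these 2 comparisons the fibroblast median had the direction of that of the 10. Adipocyte markers summed to 211.41, 375.2, 38.0 and 1.13 FPKM, almost all of it Fabp4. By library, 1, 1, 3 and 1 of 6 were at 1 FPKM or more, with Cidec at 0 with 6-OHDA, and Plin1, Cidec and Adrb3 at 0 with SP. Fabp4, the only 1 compared, differed by 0.83 with 6-OHDA and by −2.58 in control colonies against sorted cells. With SP its difference was −4.11, the lowest of all genes compared. Mural markers summed to 37.32, 45.64, 24.62 and 18.69 FPKM, with 5, 5, 2 and 1 of 5 at 1 FPKM or more, led by Rgs5 in sorted cells and Notch3 in colonies, where Kcnj8 was at 0 (1 of 5 higher and 0 lower with 6-OHDA, 2 of 2 compared lower with SP, and 3 of 4 lower in control colonies than in sorted cells, median −1.72). Schwann and nerve markers summed to 61.53, 76.59, 11.39 and 8.68 FPKM, with 3, 3, 2 and 2 of 5, led by Sox10, and Th was at 0 except with 6-OHDA. The part of these cell types in the differences of the 10 genes was not tested.

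Salivary gland transcripts, 11 of them found in the tables, summed to 15754.31 FPKM in the 6-OHDA library, 3.04% of its sum, led by Bpifa2 at 7277.16 FPKM. The other libraries held 5.67 (sorted control), 4.92 (control colonies) and 3.18 (SP colonies). FPKM is relative to the whole library, so such a share lowers the values of all other genes in it, the 10 members included. After rescaling to equal sums without these genes and the 10 members, the 6-OHDA median of the 10 was −0.26 and 2 were lower past 0.3. Without the salivary genes alone, an alternative chosen after seeing the data, the median was −0.25 and 2 were lower.

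Profiles like those of Fos and Fosl1 over the 4 libraries were searched among 9121 genes, by the root mean square difference of centred log2(FPKM + 1). The nearest to Fos was Ptx3, a secreted pattern recognition protein, at 117.17, 98.76, 55.62 and 23.46 FPKM and a distance of 0.074, followed by Tspan4 (0.094), Abtb2 (0.138), Olfml3 (0.144) and Ace (0.144). The nearest to Fosl1 was Procr, the protein C receptor, at 253.48, 190.77, 3.35 and 6.55 FPKM and a distance of 0.377, followed by Lyve1 (0.392), Osgin1 (0.441), Arl4d (0.451) and Maff (0.454). Fosl1 and these 5 genes were high in both sorted libraries and low in both colony libraries. With 4 libraries such likeness is a description only.

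The 10 genes have few exons, a feature that the choice by name did not use. In the longest GENCODE vM21 transcript of each with a RefSeq mRNA, Jun, Junb, Jund and Ier2 have 1 exon, Egr1 has 3 and the 4 FOS genes and Atf3 have 4. All 10 have 4 exons or fewer, beside 24.5% of 16844 genes in the tables with such a transcript, and the 4 genes of 1 exon stand beside 3.44%. The median gene has 8 exons. On the genome 8 of 10 span less than 10 kb, beside 26.8% of these genes, and Fosl2 (21369 bases) and Atf3 (13038 bases) are longer, beside a median of 22396.5. The transcripts are not all short. Those of Fosl2 (6537 bases), Fosb (3782), Jun (3189) and Egr1 (3036) are above the median of 2903.5 bases, and the other 6 are below it.

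Promoter sequence from RefSeq (GRCm38.p6), 250 bases before to 50 after a transcript start, was matched for 7 of the 10 genes (Fos, Fosb, Fosl2, Jun, Junb, Jund and Atf3) and searched for short motifs on both strands. The cAMP response element (CRE), the site of CREB, has the letters TGACGTCA, and its core TGACG lies within them. The full element was in 0 of the 7 windows and in 1.79% of all 32851 windows of the table or 2.57% of those of genes in the tables. The core was in 4 of 7, those of Fos, Fosb, Junb and Atf3, and in 20.8% of all windows or 26.8% of those of genes in the tables. In Fos it starts 129 and 66 bases before the gene's start, in Junb 106 and in Atf3 7, on the opposite strand. In Fosb it starts 60 bases before the start used for its window, which lies 73 bases inside the annotated gene, so these letters are within the gene's span. The AP-1 site TGANTCA was in 0 of 7 (7.81% of all windows and 6.07% of those of genes in the tables). The CArG box of SRF was in 0 (1.63% and 1.43%) and the ETS core CCGGAA in 0 (14.9% and 21.9%). Sequence farther than 250 bases before the start was not searched, so a site lying there would be missed. The EGR letters GCGTGGG were in 1, Junb (5.04% and 7.53%), and GCGGGGG in 3, Fosl2, Fosb and Junb (10.8% and 16.2%). These motifs differ in GC content, and the windows of 6 of the 7 genes had 58.7% (Fos) to 68.3% (Fosb) GC, above the median of 52.7% over all windows, while that of Jund had 46.7%. For Fos, Junb and Atf3, which hold the core before the gene's start, the 150 bases before that start are shown. The letters are given in the direction of transcription, with TGACG, or CGTCA where it lies on the opposite strand, in capitals. The stretches are Fos on the plus strand at chr12:85473740-85473889, and on the minus strand Junb at chr8:84978749-84978898 and Atf3 at chr1:191183334-191183483.
Fos: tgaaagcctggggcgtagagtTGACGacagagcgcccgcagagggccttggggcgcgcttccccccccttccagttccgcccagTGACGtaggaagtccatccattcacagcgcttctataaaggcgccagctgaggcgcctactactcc
Junb: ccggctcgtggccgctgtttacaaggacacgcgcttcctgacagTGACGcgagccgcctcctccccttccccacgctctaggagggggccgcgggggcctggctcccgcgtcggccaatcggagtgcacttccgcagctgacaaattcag
Atf3: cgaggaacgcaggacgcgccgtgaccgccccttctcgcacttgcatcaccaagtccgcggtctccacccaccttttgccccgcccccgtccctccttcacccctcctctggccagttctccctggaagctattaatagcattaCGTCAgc
A match is a description of letters, not a bound site. The SP differences of the 4 genes whose windows hold the core ran from −1.04 (Atf3) to −0.48 (Fosb). The 3 genes whose windows lack the core had −0.39 (Jun), −0.62 (Jund) and 0.38 (Fosl2), so Jund lay within the range of the others. Egr1, Fosl1 and Ier2 had no window, and whether the core bears on the SP differences was not tested.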

How the data were processed

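RNA was sequenced from 4 libraries of mouse mammary basal cells, 1 per group. The authors deposited FPKM values with 2 decimals for 17630 genes per library. The submitters' processing notes name Bowtie2, RSEM 1.3.1, DESeq2 1.4.5 and the build mm10, with no role or order. The tables hold no counts. Gene numbers were matched as NCBI Gene identifiers to RefSeq (GRCm38.p6): 17512 matched and 118 did not. Differences of log2(FPKM + 1) were taken among genes with a mean of at least 1 FPKM over both libraries, with thresholds of 0.3 and 1. A gene below 1 FPKM in 1 library of a comparison entered only when it was higher in the other, so the filter fixed its direction. With no replicates no test was run. The 18 gene lists, of which the members are 1, were chosen with earlier results of these data known. The genes named were all 10 members, the 3 of each other list with the largest difference in each comparison, the most abundant marker of each cell type list, and the 5 genes nearest in profile to Fos and to Fosl1, among genes with a mean of at least 5 FPKM; further markers and genes of the lists were named after their values were seen. Alternatives were pseudocounts of 0.1 and 5, no filter, a mean of at least 5 FPKM, 4 scalings and the threshold of 1, and, chosen after seeing the data, rescaling without the salivary genes alone. Dbh and Muc19 of the lists, the promoters of Egr1, Fosl1 and Ier2, and protein sequences were not used here, and some genes that the rule names are not reported here. Scripts were tested on simulated data, in Python 3.11.15, with pandas 2.3.3 and numpy 2.4.6 for tables and matplotlib 3.10.9 for plots.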

Additional observations from a re-analysis of the deposited data

How the results depend on the processing

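Each alternative changed the pseudocount, the filter, the scaling or the threshold. 1 scaling left out salivary genes and the 10 members together, and another, chosen after seeing the data, salivary genes alone. Of the differences of single members, 82 of 90 stayed on their side of 0.3 with 6-OHDA, 85 of 89 with SP and 84 of 90 for control colonies against sorted control; 8, 4 and 5 crossed it, and 1 reversed, that of Jun in colonies (−0.20 after scaling by the median ratio). With 6-OHDA, a pseudocount of 5 left 804 genes higher and 539 lower, a mean of at least 5 FPKM left 1066 and 639, and the members lower numbered 5 after rescaling to the same sum and 6 after scaling by the median ratio, where their median was −0.33. With SP, a pseudocount of 5 left 1276 genes lower, and a mean of at least 5 FPKM left 1 member higher, since Fosl1 no longer entered. In colonies against sorted cells, members higher numbered 1 after rescaling to the same sum, with or without salivary genes or members, and after quantile normalization, and 0 after scaling by the median ratio. The threshold of 1 gave 123 genes higher and 106 lower with 6-OHDA (0 members lower), 237 and 158 with SP (1 member higher, 2 lower), and 3761 and 1619 for colonies (0 members higher). The filter and thresholds reduce counts by construction; otherwise the cause was not tested. Over the alternatives the members' median ran from −0.33 to −0.25 with 6-OHDA, from −0.48 to −0.36 with SP and from −2.46 to −1.87 for colonies, and Fosl1 with SP from 0.69 to 1.94. No paired analysis was possible because each group has 1 library and no result comes from a test, and no library could be left out.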
